A study of Mus musculus with 6 samples.

Results

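The transcripts of 9 interferon-stimulated genes (Ifit1, Ifit2, Ifit3, Isg15, Irf7, Rsad2, Usp18, Oasl2 and Ifi44) were measured in mouse liver by RNA-seq. These genes were picked by name, as members of the antiviral programme, from the 23284 genes in the count tables. All 6 livers came from male FXR-floxed mice, which were injected through the tail vein at 8 weeks of age with a mixture of AAV8 vectors. Every mouse received AAV-TBG-Cre, which deletes the floxed gene of the bile acid (BA) receptor FXR. The second vector was AAV-TBG-WT FXR in 3 mice (FXR-WT) and AAV-TBG-Y67F FXR in the other 3 mice (Y67F-FXR), in which the tyrosine that Src phosphorylates after FGF19 treatment is replaced by phenylalanine. The TBG promoter (thyroxine-binding globulin) is active in hepatocytes, so the other cells of the liver should have kept mouse FXR and lacked the transgene. This was not measured here. All mice were fed chow with 0.5% cholic acid (CA) for 6 h, 4 weeks after injection. The study compared the groups to learn what Y67 phosphorylation does for FXR in the liver. Both groups carried vector genomes, and a liver without vector was not analysed here. The comparison below is therefore between FXR forms and not between infected and uninfected livers.

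Type I interferons bind the IFNAR1 and IFNAR2 receptor, whose kinases JAK1 and TYK2 activate transcription factors that bind the interferon-stimulated response element in the promoters of antiviral genes. Interferon gamma acts through a different sequence, the gamma-activated site. In the liver, vector DNA can be sensed by TLR9 in plasmacytoid dendritic cells and macrophages, and hepatocytes themselves respond to interferon.

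Promoter sequences from RefSeq (GRCm38.p6, 250 bases before to 50 bases after the transcript start) were found for 8 of the 9 genes, and Usp18 had no entry. The core of the interferon-stimulated response element was searched as GAAANNGAAA on either strand, which reads TTTCNNTTTC on the other strand. It was present for 4 of the 8 genes (Ifit1, Ifit3, Isg15 and Rsad2), compared with 3.99% of 27025 genes. Of 32851 promoters of the same length, 3.44% held it. The stretches around each match are printed 5′ to 3′ on the gene's strand with the core in capitals, because they show the element these 4 genes have in common.
Ifit1, chr19:34640765-34640833, plus strand: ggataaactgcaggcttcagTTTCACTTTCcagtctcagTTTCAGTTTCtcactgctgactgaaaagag
Ifit3, chr19:34583353-34583436, plus strand: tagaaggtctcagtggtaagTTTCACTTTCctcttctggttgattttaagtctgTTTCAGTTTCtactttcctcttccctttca
Isg15, chr4:156200855-156200916, minus strand: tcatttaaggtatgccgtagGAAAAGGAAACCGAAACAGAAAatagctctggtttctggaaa
Rsad2, chr12:26456543-26456592, minus strand: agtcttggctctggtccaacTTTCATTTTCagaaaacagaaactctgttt
Ifit1 and Ifit3 each held 2 separate copies, the first starting 104 and 156 bases before the transcript start. Both genes carried the same letters in both copies, TTTCACTTTC and then TTTCAGTTTC. In Isg15, 3 overlapping matches ran together and started 78, 72 and 66 bases before the start. Rsad2 held 1 copy, 120 bases before the start. The gamma-activated site, searched as TTCNNNGAA, was found only in the Ifit2 promoter among the 8 genes, compared with 9.55% of 27025 genes. Of all promoters, 8.30% held it. For Ifi44, Irf7 and Oasl2 neither set of letters was in this window, which says nothing about binding elsewhere.

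**Figure D1:**
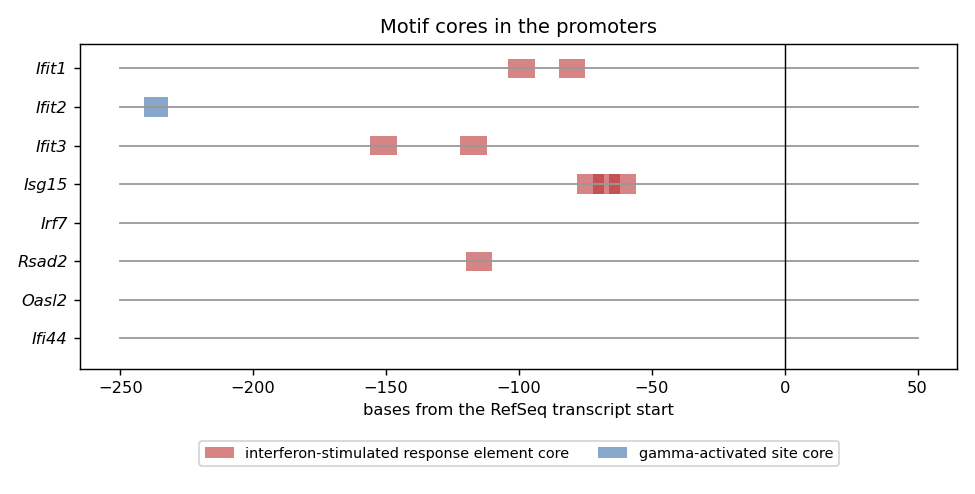
Positions of the motif cores in the promoters of the 8 interferon-stimulated genes with a RefSeq entry, in bases from the transcript start (x axis, vertical line at 0), with 1 line per gene. Red blocks are the interferon-stimulated response element core, which lies between 156 and 56 bases before the start in Ifit1, Ifit3, Isg15 and Rsad2, and the blue block is the gamma-activated site of Ifit2.

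The libraries held 19551113 to 22053320 reads counted in genes, of which 1628 to 2724 per liver fell in the 9 genes. Levels are given as CPM (reads of a gene relative to the library total, scaled by TMM). Nr1h4, the gene of FXR, was at 186 ± 30.2 CPM in FXR-WT and 175 ± 9.84 CPM in Y67F-FXR livers (SD, n = 3 each), and these counts cannot separate mouse FXR from the transgene. Summed over 8 hepatocyte markers, including Alb and Apoa1, the level was between 102774 and 133882 CPM in the 6 livers. For macrophage and lymphocyte markers, 2 Y67F-FXR libraries lay at the ends. The sum of 12 Kupffer cell and macrophage markers was 444, 367 and 292 CPM in the FXR-WT livers and 240, 643 and 387 CPM in the Y67F-FXR livers, each in the order of replicates 1 to 3. The sum of 12 T and NK cell markers was 2.28 CPM in Y67F-FXR replicate 1, 16.2 CPM in replicate 2 and 4.14 to 6.01 CPM in the other 4 livers. No gene of these 3 marker lists was at 0 in all livers. In whole liver RNA, fewer cells of a type and less RNA per cell cannot be told apart.

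None of the 9 interferon-stimulated genes was called higher or lower in mice expressing Y67F-FXR compared with mice expressing FXR-WT (edgeR quasi-likelihood test; to be called, a gene needed both a fold change over 1.5 and an adjusted p under 0.05). Of all 12453 genes tested, 121 passed this rule, which is 0.972%. All 9 genes passed the filter on low counts, so none was left out of the test. Without adjustment, 0 of the 9 had p under 0.05 by edgeR and 0 by DESeq2, compared with 13.4% of all tested genes by edgeR. The 3 values of 1 group lay wholly above those of the other group for 0 of the 9 genes and for 20.6% of all tested genes. The fitted log2 fold change (Y67F-FXR over FXR-WT) was above 0 for 4 genes and below 0 for 5, with a median of -0.02 over the 9 genes and 0.01 over all tested genes. All 9 intervals included 0, but for 8 of the 9 genes, Ifit3 being the exception, the 95% interval also reached a 1.5-fold difference in at least 1 direction. In the exact permutation test over livers (two-sided), the lowest p of the 9 was 0.2, for Ifi44, and 3 livers against 3 cannot go below 0.1.

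**Figure D2:**
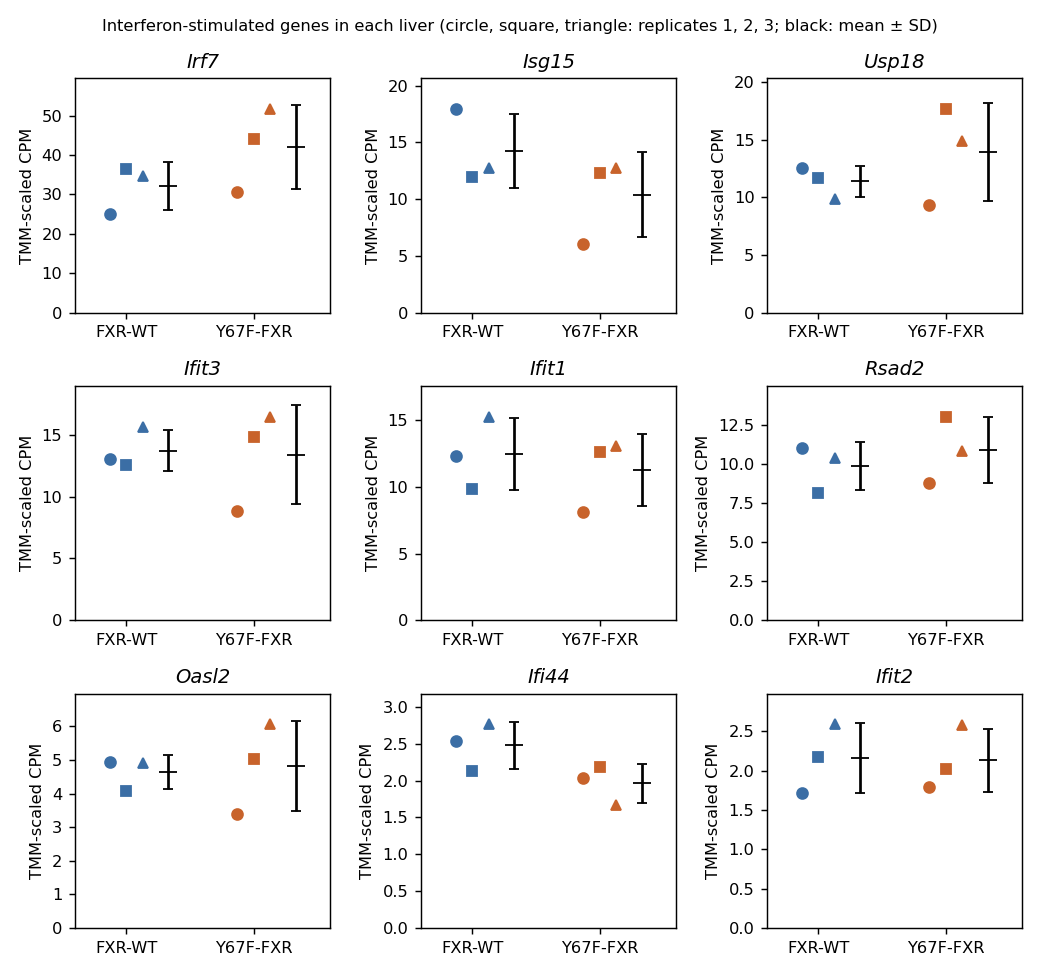
TMM-scaled CPM (y axis, from 0) of each of the 9 interferon-stimulated genes in 3 FXR-WT livers (blue) and 3 Y67F-FXR livers (orange). Symbols are single livers and black bars are the mean ± SD, and in all 9 panels the values of the groups overlap.

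Irf7 encodes the transcription factor that drives type I interferon genes and many of their targets. Its gene lies at mm9 chr7:148449082-148452323 on the minus strand. In the order of replicates 1 to 3, which is kept below, Irf7 was at 25.1, 36.5 and 34.7 CPM in the FXR-WT livers and at 30.7, 43.9 and 51.7 CPM in the Y67F-FXR livers. Y67F-FXR replicates 2 and 3 were above all FXR-WT livers, and replicate 1 was inside their range. The means were 32.1 ± 6.14 and 42.1 ± 10.6 CPM, a log2 fold change of 0.39 (SE 0.22, 95% interval -0.12 to 0.90, edgeR adjusted p = 0.517). On the linear scale the interval ran from 0.922-fold to 1.87-fold. Irf7 had the most reads of the 9 genes, 513 to 1083 per liver.

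Isg15 encodes a ubiquitin-like protein that is attached to other proteins during the interferon response. Its gene is at mm9 chr4:155573533-155574927, minus strand. The FXR-WT livers had 17.9, 11.97 and 12.7 CPM and the Y67F-FXR livers 6.07, 12.3 and 12.7 CPM. FXR-WT replicate 1 had the highest value of Isg15 and Y67F-FXR replicate 1 the lowest, with the other 4 livers close together between them. The ratio of the highest to the lowest liver was 2.95, compared with 1.51 to 2.06 for the other 8 genes. Group means were 14.2 ± 3.25 and 10.4 ± 3.73 CPM (log2 fold change -0.45, SE 0.29, 95% interval -1.13 to 0.22, edgeR adjusted p = 0.590). Isg15 is short, with 756 bases of exon, and short genes as a class differed between the livers. In the shortest 20% of the tested genes the median deviation from the gene's own mean, on the log2 scale, was 0.20, -0.02 and -0.18 in the FXR-WT livers and -0.20, 0.22 and -0.01 in the Y67F-FXR livers. Isg15 itself deviated by 0.61, 0.03 and 0.12 and by -0.94, 0.07 and 0.12. With gene length offsets in the fit its log2 fold change was -0.48 (edgeR adjusted p = 0.296), and in that fit its p before adjustment was just under 0.05, which it was not without the offsets. The part of gene length in the Isg15 values was not tested.

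Usp18 encodes the protease that removes ISG15 from proteins and also dampens signalling at IFNAR2. It was at 12.6, 11.7 and 9.89 CPM in FXR-WT livers and at 9.33, 17.7 and 14.9 CPM in Y67F-FXR livers (mm9 chr6:121195924-121220935, plus strand). As for Irf7, Y67F-FXR replicates 2 and 3 were above every FXR-WT liver. Here replicate 1 was below every one of them. Means were 11.4 ± 1.36 and 14.0 ± 4.25 CPM, with a log2 fold change of 0.29 (SE 0.24, 95% interval -0.25 to 0.84, edgeR adjusted p = 0.679).

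The Ifit genes encode tetratricopeptide repeat proteins that bind viral RNA and block its translation, and lie side by side on mouse chromosome 19. In mm9, Ifit2 is at chr19:34625184-34651024, Ifit3 at chr19:34658019-34663472 and Ifit1 at chr19:34715379-34724499, all on the plus strand. Ifit1 was at 12.3, 9.89 and 15.3 CPM in FXR-WT and 8.16, 12.7 and 13.1 CPM in Y67F-FXR livers. Ifit3 was at 13, 12.6 and 15.6 CPM in FXR-WT and 8.84, 14.8 and 16.5 CPM in Y67F-FXR livers. Both genes were lowest in Y67F-FXR replicate 1, and the remaining Y67F-FXR livers were within the FXR-WT range for Ifit1 and reached just above it for Ifit3. Their log2 fold changes were -0.15 (95% interval -0.68 to 0.39, edgeR adjusted p = 0.863) and -0.04 (95% interval -0.57 to 0.50, edgeR adjusted p = 0.976). Ifit2 was much lower, with 35 to 60 reads per liver. It was at 1.71, 2.18 and 2.59 CPM in FXR-WT and 1.80, 2.02 and 2.58 CPM in Y67F-FXR livers, 2 sets of values with nearly the same range (log2 fold change -0.02, 95% interval -0.62 to 0.58, edgeR adjusted p = 0.988).

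Ifit3 has a near-identical neighbour, I830012O16Rik (Ifit3b), and reads that matched several places were not counted, so the level of either gene is uncertain. I830012O16Rik was at 3.23, 2.37 and 3.71 CPM in FXR-WT and 1.89, 3.00 and 2.53 CPM in Y67F-FXR livers, and made up 13.3% to 19.9% of the CPM of the pair. Its log2 fold change was -0.33 (edgeR adjusted p = 0.677). This gene was added after the values had been seen.

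Rsad2 encodes viperin, an enzyme that makes a chain-terminating ribonucleotide from CTP. Rsad2 was at 11.0, 8.14 and 10.4 CPM in FXR-WT and 8.79, 13 and 10.8 CPM in Y67F-FXR livers (mm9 chr12:27127608-27141317, minus strand). The values of the groups were interleaved, and the log2 fold change was 0.14 (95% interval -0.31 to 0.59, edgeR adjusted p = 0.837). Oasl2, a relative of the oligoadenylate synthetases with ubiquitin-like domains, was at 4.94, 4.07 and 4.92 CPM in FXR-WT and 3.40, 5.02 and 6.06 CPM in Y67F-FXR livers (mm9 chr5:115346943-115362254, plus strand). The FXR-WT values lay inside the Y67F-FXR range, with a log2 fold change of 0.06 (95% interval -0.50 to 0.61, edgeR adjusted p = 0.960). Ifi44, whose product is less well characterised, was at 2.54, 2.13 and 2.76 CPM in FXR-WT and 2.04, 2.18 and 1.67 CPM in Y67F-FXR livers (mm9 chr3:151393887-151412923, minus strand). The Ifi44 groups overlapped only through FXR-WT replicate 2, which was just under Y67F-FXR replicate 2. Its log2 fold change was -0.34 (95% interval -0.87 to 0.19, edgeR adjusted p = 0.610), from 35 to 64 reads per liver.

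**Figure D3:**
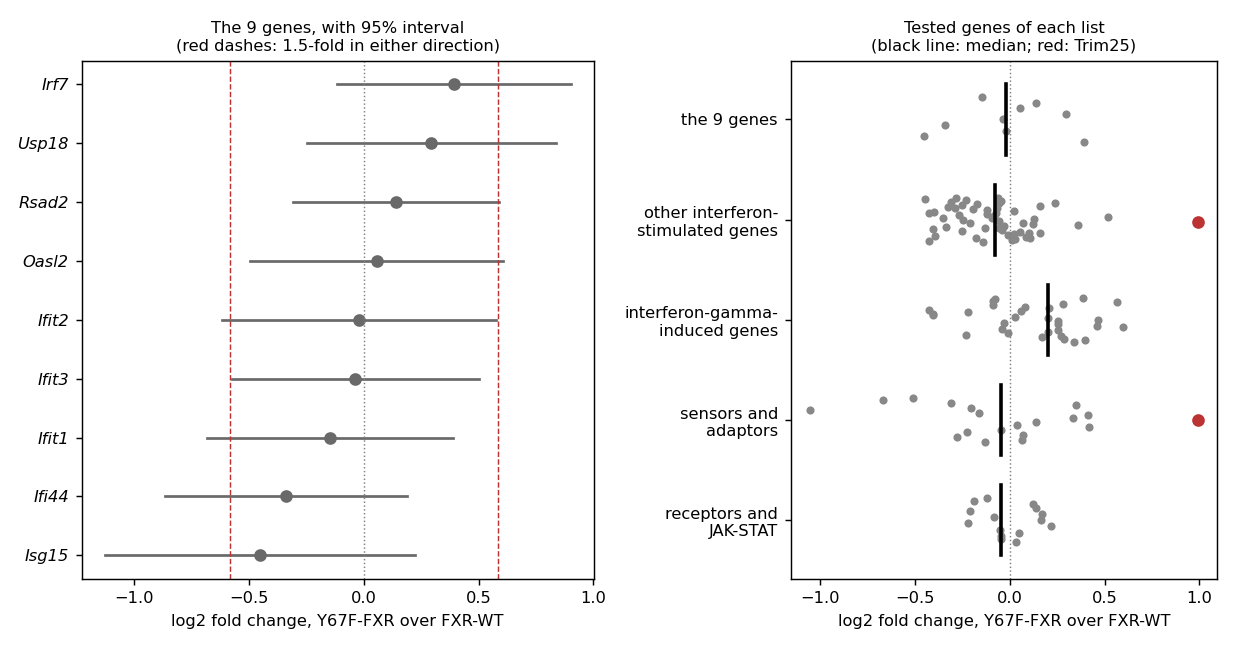
Left, fitted log2 fold change (x axis, Y67F-FXR over FXR-WT) of the 9 interferon-stimulated genes with 95% intervals, all of which include 0. Right, log2 fold changes of the tested genes of 5 lists with the list median as a black line, where Trim25, in red and present in 2 of the lists, is the called gene at 0.99.

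Per length of exon, the mean level over the 6 livers was 19.9 CPM per kb for Irf7, 16.3 for Isg15, 7.15 for Usp18, 6.78 for Ifit3, 4.51 for Ifit1 and 2.74 for Rsad2. The lower levels were 1.51 CPM per kb for Oasl2, 0.764 for Ifi44 and 0.543 for Ifit2. In this order, neighbours from Irf7 down to Rsad2 overlapped in their ranges over livers, as did Ifi44 and Ifit2. Rsad2 was above Oasl2 and Oasl2 above Ifi44 in every liver range, with lowest levels of 2.15 and 1.08 CPM per kb against highest levels of 1.93 and 0.95 for the gene below.

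The spread within groups was larger in mice expressing Y67F-FXR for most of these genes. The median SD of log2 CPM over the 9 genes was 0.23 in FXR-WT and 0.38 in Y67F-FXR livers, compared with 0.21 and 0.23 over all tested genes. The SD was larger in the Y67F-FXR group for 8 of the 9 genes, with Ifit2 as the exception, and for 55.8% of all tested genes. The difference was widest for Ifit3 (0.17 in FXR-WT and 0.48 in Y67F-FXR), Usp18 (0.18 and 0.47), Isg15 (0.31 and 0.60) and Oasl2 (0.16 and 0.42). With 3 livers in a group no test of a single SD was made. This pattern rested on Y67F-FXR replicate 1. Without that liver the median SD in Y67F-FXR was 0.17 and the SD was larger in Y67F-FXR for 2 of the 9 genes, compared with 43.4% of all tested genes. Leaving out any other liver gave 7 or 8 of 9, while the share of all tested genes moved between 34.4% and 74.5%, and it was highest without FXR-WT replicate 1, where 7 of the 9 had the larger SD.

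Compared with genes of similar level, the spread was higher for 5 of the 9 genes and lower for the rest. These values include Y67F-FXR replicate 1, on which the larger SD in Y67F-FXR rested, and no BCV without that liver is given. The biological coefficient of variation (BCV, the relative SD between livers of a group beyond counting error) had a median of 0.205 for the 9 genes and 0.175 for all tested genes. It was above the trend over all genes for 5 of the 9 (Ifit1, Ifit3, Isg15, Irf7 and Usp18), compared with 31.5% of all tested genes. The highest was Isg15 at 0.256, where the trend was 0.186. The weakly expressed Ifit2 and Ifi44 were below the trend, at 0.20 and 0.17 where it was 0.25 for both.

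**Figure D4:**
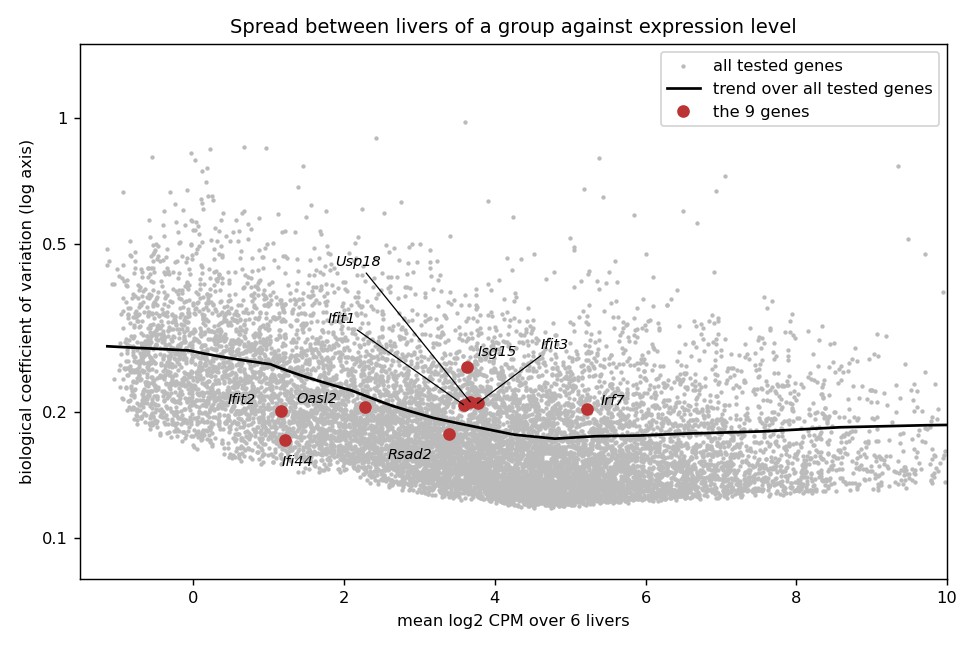
Biological coefficient of variation (y axis, log scale) against mean log2 CPM (x axis) for the tested genes (grey; a few highly expressed genes lie beyond the right edge), with the trend as a black line and the 9 interferon-stimulated genes in red. Isg15, Irf7, Usp18, Ifit3 and Ifit1 sit above the line, Isg15 the highest at 0.256, and Rsad2, Oasl2, Ifi44 and Ifit2 sit below it.

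The livers were ordered by the mean deviation of the 9 genes, each centred on its own mean log2 CPM. The FXR-WT livers had values of 0.03, -0.10 and 0.12, and the Y67F-FXR livers -0.41, 0.17 and 0.19. Y67F-FXR thus held both the lowest liver and the 2 highest ones, and the group means differed by -0.03. This difference depended on single livers, being 0.16 without Y67F-FXR replicate 1, -0.13 without Y67F-FXR replicate 2 and 0.02 without FXR-WT replicate 3. In Y67F-FXR replicate 1 all 9 genes were below their own means, from -0.10 for Ifi44 to -0.94 for Isg15, and it was the lowest liver for 5 of them. Y67F-FXR replicate 3 had 8 genes above their means, and Ifi44 was lowest there. Irf7 and Ifit2 were lowest in FXR-WT replicate 1 and Rsad2 in FXR-WT replicate 2.

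**Figure D5:**
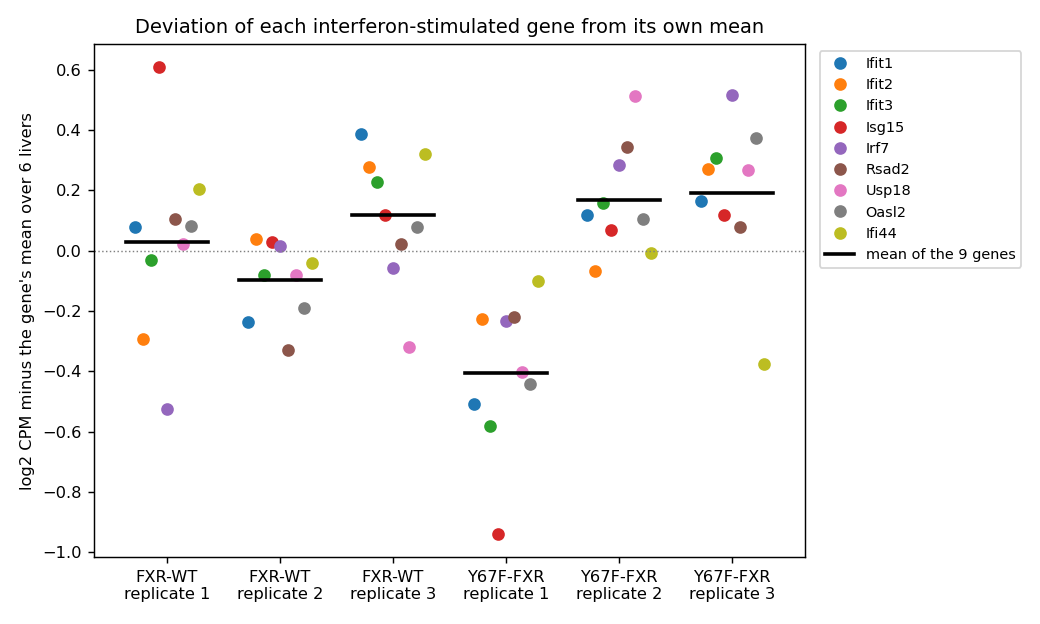
Deviation of each of the 9 genes from its own mean log2 CPM (y axis) in each of the 6 livers (x axis), with the mean of the 9 genes as a black bar. The points of Y67F-FXR replicate 1 are all below 0 with a mean of -0.41, and those of the other 5 livers lie on both sides of 0.

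Across the 6 livers most of the 9 genes varied together. Of 36 pairs, 31 had a positive Pearson r of log2 CPM, with a median of 0.54 and a range of -0.66 to 0.93. The highest values were between Ifit3 and Oasl2 (0.93) and between Ifit1 and Ifit3 (0.91). Against the mean of the other 8 genes, r was 0.97 for Ifit3, 0.92 for Oasl2 and 0.88 for Ifit1. For Rsad2, Isg15, Usp18 and Ifit2 it was between 0.47 and 0.67, for Irf7 0.38, and for Ifi44 -0.07. These values describe 6 points that share the library and its depth, and the low liver Y67F-FXR replicate 1 is one of them.

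The genes whose log2 CPM followed the mean of the 9 most closely over the 6 livers were 2210015D19Rik (r = 0.99), Xaf1 (0.97), Lcmt2 (0.97), Rassf4 (0.96), Acbd4 (0.96), Mndal (0.94), Nbeal2 (0.94), Fabp7, Ncoa3 and Abcg3 (0.93 each). Xaf1 encodes an interferon-induced binder of the apoptosis inhibitor XIAP and is 1 of the other interferon-stimulated genes listed below. 2210015D19Rik shares exon bases with Urgcp, so its counts may be incomplete. Of 12444 genes, 130 had r above 0.8 over these 6 livers. The median r was 0.51 for 54 other interferon-stimulated genes, of which 43 were above 0, and 0.54 for 31 interferon-gamma-induced genes, of which 30 were above 0. For all 12444 genes it was -0.02, with 6046 above 0.

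Of 58 other interferon-stimulated genes listed, 54 were tested, 1 was called higher in Y67F-FXR and 0 lower, compared with 0.972% of all tested genes called. Their fitted log2 fold changes ranged from -0.45 to 0.99 with a median of -0.08, and 17 were above 0 and 37 below. Of all 12453 tested genes, 6474 were above 0 and 5979 below. The called gene was Trim25, a ubiquitin ligase that acts on the RNA sensor RIG-I and can also attach ISG15 (mm9 chr11:88860717-88881607, plus strand). Trim25 was at 42.9, 37.6 and 35.7 CPM in FXR-WT and 73.8, 87.2 and 70.2 CPM in Y67F-FXR livers. Every Y67F-FXR liver was above every FXR-WT liver, with means of 38.7 ± 3.74 and 77.1 ± 8.95 CPM (log2 fold change 0.99, SE 0.14, edgeR adjusted p = 0.0243). The Trim25 call was lost without FXR-WT replicate 2 (edgeR adjusted p = 0.102), FXR-WT replicate 3 (0.105), Y67F-FXR replicate 1 (0.0621) or Y67F-FXR replicate 3 (0.0810). Trim25 also lost its call with the replicate number as a block (edgeR adjusted p = 0.137). Over all 6 fits with a liver left out, its log2 fold change was between 0.88 and 1.07. By smallest p the next genes were Tor3a, an interferon-induced ATPase of the endoplasmic reticulum (6.76 ± 0.511 and 9.68 ± 0.902 CPM, edgeR adjusted p = 0.176), and Pnpt1, a mitochondrial RNA exonuclease (26.3 ± 3.23 and 19.9 ± 3.99 CPM, edgeR adjusted p = 0.378).

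Y67F-FXR replicate 1 was also the lowest liver for this wider group. The mean deviation of the 54 genes was -0.28 there and between -0.02 and 0.12 in the other 5 livers. The SD of this mean was 0.07 in FXR-WT and 0.21 in Y67F-FXR livers, while the median SD of the single genes was 0.25 in each group and 33 of the 54 had the larger SD in Y67F-FXR. The BCV was above the trend for 17 of the 54 genes (31.5%), the same share as among all tested genes.

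Genes that answer mainly to interferon gamma, such as the guanylate-binding proteins and antigen presentation genes, were not called in either direction (31 tested of 32 listed). Their median log2 fold change was 0.20, with 20 above 0, compared with 0.01 and 6474 of 12453 for all tested genes. As in the 9 genes, most had the larger SD in Y67F-FXR (24 of 31, with a median of 0.31 in FXR-WT and 0.51 in Y67F-FXR), as did all 12 Kupffer cell and macrophage markers. H2-K1, a class I antigen-presenting molecule, was at 1405, 1348 and 1107 CPM in FXR-WT and 1222, 2485 and 1615 CPM in Y67F-FXR livers (edgeR adjusted p = 0.491). Nlrc5, the activator of class I genes, was at 14.1 ± 2.25 and 19.5 ± 1.13 CPM with no overlap of the groups (edgeR adjusted p = 0.232). Iigp1, a GTPase against intracellular parasites, was at 273 ± 104 and 206 ± 27.1 CPM (edgeR adjusted p = 0.597). The mean deviation of the 31 genes was -0.45 in Y67F-FXR replicate 1 and 0.59 in replicate 2, and -0.07 to 0.02 in the other 4 livers. These are the livers with the lowest and the highest sums of Kupffer cell and of T and NK cell markers. For the 9 genes the order differed in part, since Y67F-FXR replicate 3 and not replicate 2 was the highest. The part of these cells in either group of genes was not tested.

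Interferon genes themselves had almost no counted reads. Of 21 genes for type I, II and III interferons, 19 had no read in any liver, including Ifnb1 and the interferon alpha genes. Ifng had 6 reads and Ifnk 2 reads over all 6 livers. The interferon alpha genes are close copies of each other, and reads that matched several places were not counted, so their zeros do not show that no such transcript was sequenced. For reads that could be placed, a count of 0 allows up to 3 reads, or 0.130 to 0.164 CPM per liver, for counting error only. No interferon gene was tested, and a difference between groups was not detectable from these counts.

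Among receptors and signalling genes for interferon, 0 of 15 tested genes were called, and the median log2 fold change was -0.04. Ifnar2, a chain of the type I receptor, was at 111 ± 11.5 CPM in FXR-WT and 130 ± 3.15 CPM in Y67F-FXR livers (edgeR adjusted p = 0.493). Ptpn6, a phosphatase that damps JAK signalling (30.04 ± 1.17 and 33.6 ± 3.77 CPM), and Ifngr2, a chain of the interferon gamma receptor (28.8 ± 2.36 and 32.4 ± 3.93 CPM), had edgeR adjusted p = 0.669 and 0.676. Il28ra, a chain of the type III receptor, had 26 reads in all livers together and was not tested.

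Of 22 nucleic acid sensors and adaptors, 19 were tested. Trim25, which is also in this list, was the 1 called gene, compared with 0.972% of all tested genes called. At unadjusted p under 0.05, 3 of the 19 were higher in Y67F-FXR (Trim25, Mavs and Myd88) and 3 lower (Irf5, Ikbke and Traf3), compared with 13.4% of all tested genes in either direction. Mavs, the mitochondrial adaptor of RIG-I, was at 66.6, 76.4 and 70.3 CPM in FXR-WT and 91.9, 99.7 and 92.0 CPM in Y67F-FXR livers. The Mavs groups did not overlap, but the gene missed the threshold (log2 fold change 0.41, SE 0.11, edgeR adjusted p = 0.162). Irf5, a transcription factor downstream of TLR signalling in myeloid cells, was at 29.6, 13.8 and 19.9 CPM in FXR-WT and 7.38, 12.5 and 10.6 CPM in Y67F-FXR livers. The Irf5 groups did not overlap either, and the gene missed the threshold (log2 fold change -1.05, SE 0.30, edgeR adjusted p = 0.169). Sums of monocyte and neutrophil markers were 8.12 to 15.4 CPM in FXR-WT and 5.44 to 9.43 CPM in Y67F-FXR livers, with 3 of the 6 tested markers lower in Y67F-FXR at unadjusted p under 0.05 and 0 called. Of all 12453 tested genes, 830 were lower at that threshold. All 6 were fitted lower. S100a8, a neutrophil calcium-binding protein gene, was at 1.27, 0.969 and 0.863 CPM in FXR-WT and 0.243, 0.164 and 0.0477 CPM in Y67F-FXR livers (log2 fold change -2.73, SE 0.49, edgeR adjusted p = 0.0529). It passed the filter on low counts through the FXR-WT livers only. Its Y67F-FXR values were close to or below the 0.130 to 0.164 CPM that a count of 0 allows, so its fold change rests on a few reads. The part of monocytes and neutrophils in the Irf5 values was not tested. Tlr9, the sensor of vector DNA, had 16 reads over all livers, Tlr8 16 and the DNA sensor cGAS (E330016A19Rik) 34, and none was tested. The 7 plasmacytoid dendritic cell markers summed to 3.18 to 3.39 CPM in FXR-WT and 2.33 to 3.33 CPM in Y67F-FXR livers. Most of this sum was Lair1, an inhibitory receptor gene that other leukocytes also express. Lair1 was at 2.25, 2.23 and 2.37 CPM in FXR-WT and 1.21, 2.02 and 1.62 CPM in Y67F-FXR livers (log2 fold change -0.50, edgeR adjusted p = 0.457). Its groups did not overlap, as for 20.6% of all tested genes. The other 6 markers had 12 to 29 reads each over all livers and were not tested.

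Within the enzymes that attach and remove ISG15, 6 genes including Isg15, Usp18 and Trim25 were tested. The attaching enzyme Trim25 was the 1 gene called, compared with 0.972% of all tested genes, and its call was lost in several fits, as given above. The attaching enzymes Uba7, Ube2l6 and Herc6, named here after their values were seen, had log2 fold changes of 0.01, -0.06 and 0.09 and were not called.

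The remaining marker lists showed no called gene. Sums over 5 B cell markers were 4.75 to 7.28 CPM in FXR-WT and 3.94 to 9.49 CPM in Y67F-FXR livers, lowest in replicate 1 and highest in replicate 2 of Y67F-FXR. Sinusoidal endothelial markers summed to 230 to 260 CPM in FXR-WT and 240 to 251 CPM in Y67F-FXR livers. Of these 8 markers, 5 were fitted higher in Y67F-FXR and 3 lower. Among the 3, Lyve1 was lower at unadjusted p under 0.05 without overlap of the groups (14.7 ± 5.86 and 7.94 ± 0.549 CPM, edgeR adjusted p = 0.211). Stellate cell markers summed to 209 to 223 CPM in FXR-WT and 149 to 209.8 CPM in Y67F-FXR livers. Dcn, a matrix proteoglycan gene named here after its values were seen, made up most of the stellate sum (130.1 ± 6.48 and 121 ± 27.1 CPM). Of the 8 stellate markers, 7 were fitted lower in Y67F-FXR, 3 at unadjusted p under 0.05 and 3 without overlap of the groups. Of all 12453 tested genes, 5979 were fitted lower, 830 at that threshold, and 1303 lay wholly below. Lrat, the retinol-esterifying enzyme of stellate cells, was at 16.6 ± 3.05 and 7.46 ± 1.47 CPM (edgeR adjusted p = 0.0540).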

How the data were processed

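RNA from each liver was sequenced as paired-end 100-base reads, 1 library per mouse. The authors deposited raw counts per gene and a table of their own comparison (log2 fold changes, p-values), which was not used. Per the labels and file headers, reads were trimmed (Trimmomatic 0.36), aligned to mm9 (STAR 2.5.3a in the submitters' processing notes, where the study's methods give another release) and counted over exons of UCSC genes (featureCounts 1.4.6-p4) without strand, each read of a pair singly, leaving out reads with several places or genes. Here, genes were filtered by expression (12453 of 23284 tested) and compared with edgeR 4.0.16 (TMM factors, quasi-likelihood test, Benjamini-Hochberg adjustment over all tested genes) in R 4.3.3. A call required a fold change over 1.5 and an adjusted p under 0.05. Log2 CPM used a prior count of 2. DESeq2 1.42.0 was an alternative. The scripts were tested on simulated data.

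The 9 genes and all lists were chosen with earlier results of these data known. From each list the text names called genes and otherwise those with the 3 smallest p, from the marker lists mostly sums, and the 10 genes (mean of at least 1 CPM) with the highest r to the mean of the 9. Aliases were matched through RefSeq. Of the 58 other interferon-stimulated genes, 55 had a matching symbol. The edgeR p-values and 95% intervals weigh the group difference against the spread between livers, which edgeR estimates partly from the other tested genes. The floor for a count of 0 covers counting error only.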

Additional observations from a re-analysis of the deposited data

How the results depend on the processing

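The number of the 9 genes called was 0 under all 15 alternatives. Of 135 log2 fold changes of single genes under these, 11 reversed (9 of the 135, without a fold minimum, equal the reported values by construction), and the lowest edgeR adjusted p was 0.282 (Irf7 without Y67F-FXR replicate 1). Irf7 (0.23 to 0.58), Usp18 (0.08 to 0.52), Isg15 (-0.62 to -0.18) and Ifi44 (-0.44 to -0.23) kept their direction throughout, with these ranges over livers left out in turn. Before adjustment, edgeR p was under 0.05 for Irf7 and Usp18 without Y67F-FXR replicate 1, for Irf7 with the replicate number as a block and for Isg15 with gene length offsets. Oasl2 became -0.022 with library totals in place of TMM, a scaling that moved the median of all genes from 0.01 to -0.06. Leaving out each liver in turn gave -0.14 to 0.26 for Oasl2, -0.29 to 0.041 for Ifit1, -0.18 to 0.13 for Ifit2, -0.21 to 0.19 for Ifit3 and -0.020 to 0.27 for Rsad2. The median SD of the 9 genes in Y67F-FXR ranged from 0.17 to 0.47, lowest without replicate 1. The number of all tested genes called was 121, compared with 431 by DESeq2, 447 by the edgeR likelihood ratio test, 245 with gene length offsets and 9 to 66 with each liver left out. Deviations of same-numbered livers had r of -0.52, -0.08 and 0.12. The labels do not say whether the numbers pair mice, and these values cannot settle it. With the replicate number as a block, 8 genes were called in all and 0 of the other interferon-stimulated genes, where Trim25 had edgeR adjusted p = 0.137, and leaving out each liver gave 0 to 1. The causes were not tested. Depth limits mainly Ifit2 and Ifi44, with 35 to 64 reads per liver.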
